A study of Homo sapiens with 21 samples.

Results

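The set examined here as cadherins of the kidney tubule holds 9 genes: CDH1, CDH2, CDH3, CDH4, CDH6, CDH11, CDH13, CDH16 and CDH17. Not all are typical of tubule epithelium, since CDH11 is known from mesenchyme and bone and CDH17 from liver and intestine. They were chosen by name from knowledge of kidney adhesion, but with earlier results of these data known. All 9 were present among the 23368 features of the mRNA count table. The cells were HK-2, an established human line derived from proximal tubule epithelium of the kidney and grown in a serum-free medium with epidermal growth factor and bovine pituitary extract. The first group received cyclosporine A at 5 µg/mL, a calcineurin inhibitor used against transplant rejection that can injure the kidney, and the other received 0.1% ethanol as vehicle. Polyadenylated mRNA and small RNA were each sequenced after 48 h, from 4 cyclosporine A and 4 vehicle libraries. The RNA held by AGO2, a protein that microRNAs guide to their targets, was mapped after 24 h by PAR-CLIP, in which 4-thiouridine at 100 µM is built into RNA and crosslinked to protein with ultraviolet light. The labels list 2 AGO2 libraries per treatment, deposited as 1 pooled cluster list each, and 1 further sample taken with an antibody to all Argonaute proteins whose treatment the labels do not give.

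Cadherins are membrane proteins that hold neighbouring cells together when calcium is present, each binding chiefly its own kind on the next cell. The classical members end in a cytoplasmic tail that binds beta-catenin, and alpha-catenin links that complex to actin. E-cadherin, encoded by CDH1, predominates in the distal nephron, while the proximal tubule is known for N-cadherin from CDH2 and K-cadherin from CDH6. Kidney-specific cadherin, from CDH16, has only a short tail and is found on the basolateral membrane of tubule cells. Cadherin genes are also read out in studies of epithelial plasticity, where the zinc finger repressors SNAI1, SNAI2, ZEB1 and ZEB2 act on CDH1.

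Total counts ranged from 3965431 to 7041604 per mRNA library and from 6664231 to 9184278 per miRNA library. Separate cultures are not stated in the labels, so each p-value reflects the spread among libraries, part or all of which may be technical. Of the genes listed as proximal tubule markers, LRP2 had 0 and 1 counts over the 4 cyclosporine A and 4 vehicle libraries. CUBN had 1 and 16, and HNF4A, SLC22A6 and SLC22A8 had 0 in all 8. PAX8, KRT19 and GGT1 were present in every library, but PAX8 and KRT19 are not particular to the proximal tubule. Among markers of other cells, POSTN, PDGFRA, PECAM1, KDR, EMCN, PTPRC, CD3E, UMOD and AQP2 had 0 counts in all 8 libraries, while other markers on the same lists were present, among them LUM, DCN, CD68, SCNN1A and TIE1. Levels are given as CPM, counts scaled to the size of the library after TMM normalisation, and they are not set against each other between genes, since transcript lengths were not used. A library needed 2.205 CPM to count toward the filter on low counts, which asked for 4 such libraries; 12855 features passed. Of the 9 cadherins, CDH1, CDH2, CDH4, CDH6 and CDH16 passed, and CDH3, CDH11, CDH13 and CDH17 did not.

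Cyclosporine A lowered the mRNA of CDH16, CDH6, CDH1 and CDH2 and raised that of CDH4. By edgeR's quasi-likelihood test with Benjamini-Hochberg adjustment, 4 of the 5 tested cadherins were called lower, where 33.5% of all tested features were, and 1 was called higher, where 33.3% were. Groups did not overlap for 4 of the 5, against 57.9% of all tested features. CDH1 and CDH16 passed the filter through their vehicle libraries, with 1 and 3 cyclosporine A libraries above 2.205 CPM, so their differences were partly set by the filter and the counts are a description. In bulk RNA, fewer cells that express a gene and less RNA per cell cannot be told apart.

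CDH16, the kidney-specific cadherin, had 4.53, 2.20, 2.99 and 3.32 CPM in the cyclosporine A libraries, against 55.2, 48.0, 45.5 and 51.3 CPM in the vehicle libraries. The cyclosporine A values rest on 57 counts in all and are uncertain, but the highest of them lay far below the lowest vehicle value. The vehicle values were close together. The means were 3.26 ± 0.967 and 50.001 ± 4.18 CPM (SD, n = 4 libraries each), and the log2 fold change was -3.91 ± 0.15 (SE; edgeR quasi-likelihood adjusted p = 2.668e-31). Only 11 of the 12855 tested features, or 0.0856%, had a log2 fold change as low as that of CDH16, a place that is a description, since CDH16 was tested through its vehicle libraries. CDH17, the liver-intestine cadherin and its closest relative in structure, had 5 counts over the 4 cyclosporine A libraries and 4 over the 4 vehicle libraries. At that depth a difference in CDH17 was not detectable (two-sided exact permutation p = 0.371).

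CDH6, a classical cadherin of the developing and mature proximal tubule, had 58.2, 57.6, 52.0 and 51.4 CPM with cyclosporine A, against 464, 433, 440 and 394 CPM with vehicle. The groups were far apart and each was tight. Means were 54.8 ± 3.61 and 433 ± 29.0 CPM (SD, n = 4 each), a 7.889-fold lower level with cyclosporine A and a log2 fold change of -2.98 ± 0.07 (edgeR quasi-likelihood adjusted p = 2.318e-41). In all, 39 of the tested features, or 0.303%, fell at least this far. CDH11, its relative of mesenchyme and bone, had 0 counts in all 8 libraries, which allows up to 0.171 CPM over the cyclosporine A libraries and 0.141 CPM over the vehicle libraries (3 counts per treatment; counting error only).

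CDH1, which encodes E-cadherin, had 9, 10, 3 and 5 counts in the cyclosporine A libraries and 67, 45, 39 and 39 in the vehicle libraries. In CPM these were 1.85, 2.44, 0.690 and 1.28 with cyclosporine A, against 9.51, 8.28, 8.26 and 8.81 with vehicle. The low counts make the cyclosporine A values uncertain, but the highest of them stayed well under the lowest vehicle value. Means were 1.57 ± 0.753 and 8.71 ± 0.586 CPM (SD, n = 4 each), with a log2 fold change of -2.46 ± 0.25 (edgeR quasi-likelihood adjusted p = 1.12e-12).

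CDH3, which encodes P-cadherin and lies beside CDH1 in the genome, did not pass the filter. It had 5, 5, 3 and 4 counts with cyclosporine A and 27, 21, 15 and 8 with vehicle, or 0.991 ± 0.221 and 3.17 ± 0.962 CPM (SD, n = 4 each). The groups did not overlap, and the fourth vehicle library, at 1.81 CPM, was the nearest to the cyclosporine A values. A two-sided exact permutation test gave p = 0.0286, the smallest that 4 against 4 libraries allow; 3 cadherins below the filter were tested in this way. In the edgeR fit without a filter CDH3 had a log2 fold change of -1.69 ± 0.37 (quasi-likelihood adjusted p = 1.54e-05), and the authors' deposited table gave -1.33 with an adjusted p of 0.00113.

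CDH2, which encodes N-cadherin, had 135, 148, 142 and 137 CPM with cyclosporine A, against 226, 198, 198 and 194 CPM with vehicle. The groups did not overlap, although the gap was much smaller than for CDH6 or CDH16. Means were 140 ± 5.85 and 204 ± 14.5 CPM (SD, n = 4 each), with a log2 fold change of -0.54 ± 0.06 (edgeR quasi-likelihood adjusted p = 2.994e-11).

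CDH4, which encodes R-cadherin, a close relative of N-cadherin, had 13.2, 9.53, 11.5 and 9.97 CPM with cyclosporine A, against 7.95, 6.44, 10.4 and 7.23 CPM with vehicle. The groups overlapped, since the third vehicle library lay above the second and the fourth cyclosporine A libraries. Means were 11.04 ± 1.65 and 7.997 ± 1.70 CPM (SD, n = 4 each), with a log2 fold change of 0.48 ± 0.17 (edgeR quasi-likelihood adjusted p = 0.00868). The call rested on the first cyclosporine A library: without it the log2 fold change was 0.38 and the adjusted p 0.0599.

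CDH13, which encodes T-cadherin, a cadherin held by a lipid anchor with no cytoplasmic tail, had 4 counts over the cyclosporine A libraries and 6 over the vehicle libraries. No difference was detectable at this depth (two-sided exact permutation p = 0.914). For the 5 tested cadherins, the authors' deposited table gave log2 fold changes of -3.71 for CDH16, -2.95 for CDH6, -2.16 for CDH1, -0.53 for CDH2 and 0.47 for CDH4, the last with an adjusted p of 0.0413.

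**Figure D1:**
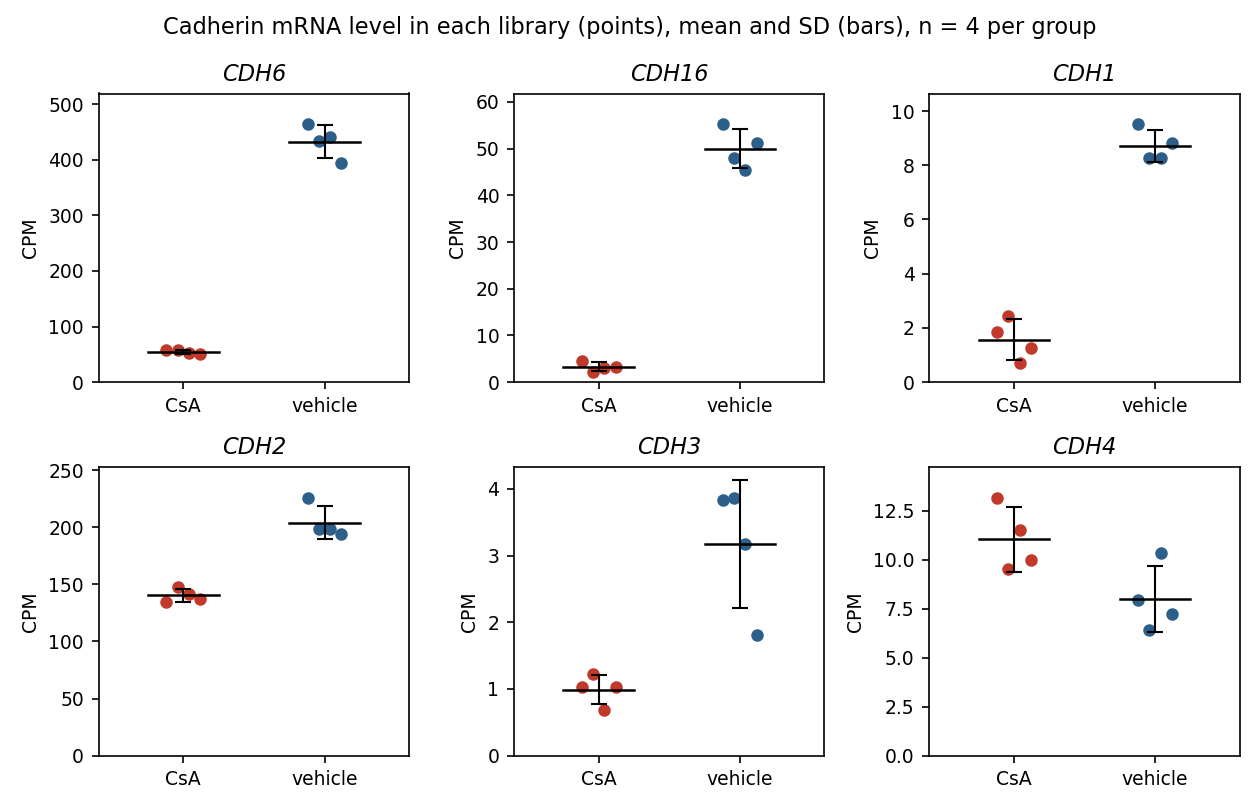
Level of CDH6, CDH16, CDH1, CDH2, CDH3 and CDH4 in each mRNA library in CPM, 1 panel per gene with its own axis from 0, cyclosporine A (CsA) points left of vehicle points, and bars for the mean and SD. CDH16 and CDH6 show the widest gaps, CDH2 a narrow one (140 against 204 CPM on average), and the CDH4 groups overlap.

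The unequal changes altered the make-up of the cadherin reads. Summed over the 9 genes, the level was 204 to 222 CPM with cyclosporine A and 657 to 766 CPM with vehicle. CDH2 made up 62.9 to 67.6% of the cadherin counts in the cyclosporine A libraries and 28.0 to 29.5% in the vehicle libraries. CDH6 made up 24.8 to 27.1% with cyclosporine A and 59.9 to 62.4% with vehicle. These shares are of reads and were not divided by transcript length, and no test was made over them.

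A ratio of 2 genes within a library does not depend on how libraries are scaled. The ratio of CDH2 to CDH6 counts was 2.32, 2.57, 2.73 and 2.66 with cyclosporine A, against 0.487, 0.457, 0.450 and 0.493 with vehicle. CDH2 counts thus exceeded CDH6 counts in every cyclosporine A library and fell short of them in every vehicle library, and the ratio differed 5.44-fold. The ratio of CDH2 to CDH16 was 29.8, 67.3, 47.4 and 41.2 with cyclosporine A, against 4.09, 4.12, 4.35 and 3.79 with vehicle. The ratio of CDH2 to CDH1, often read as a switch from E- to N-cadherin, was 72.9, 60.6, 205 and 107 with cyclosporine A, against 23.7, 23.9, 24.0 and 22.1 with vehicle, while CDH2 itself was lower with cyclosporine A. The value of 205 rests on 3 CDH1 counts; the log2 difference of the ratio was 2.08 with all libraries and 1.73 without that one. The ratio of CDH2 to CDH4 went the other way, at 10.3, 15.5, 12.3 and 13.7 with cyclosporine A, against 28.4, 30.7, 19.1 and 26.9 with vehicle.

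**Figure D2:**
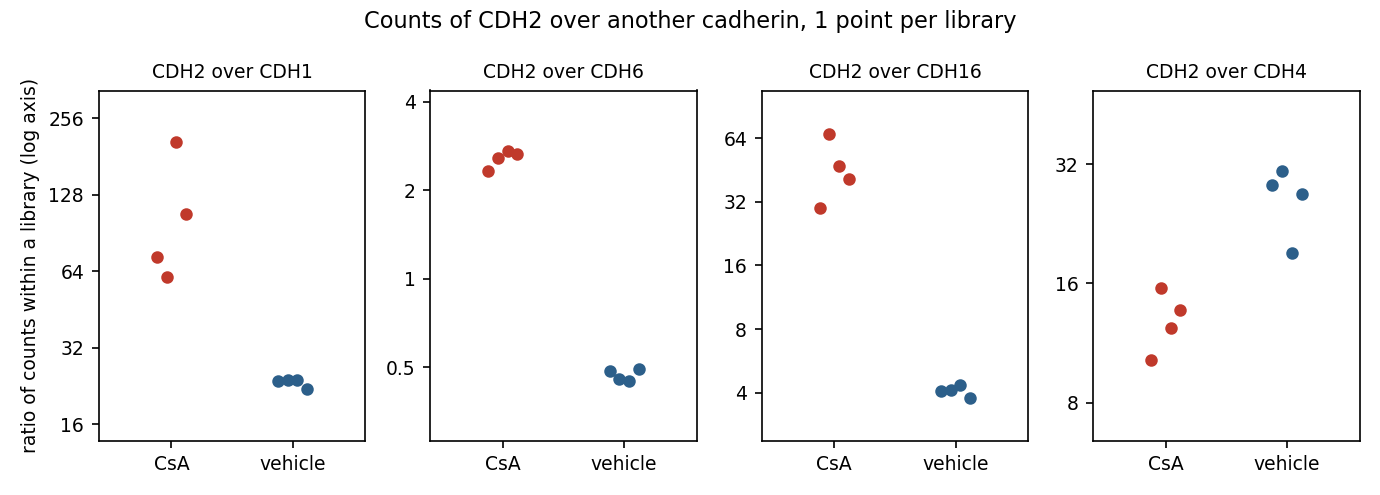
Ratio of CDH2 counts to CDH1, CDH6, CDH16 and CDH4 counts within each mRNA library, on a logarithmic axis, with CsA points left of vehicle points. The ratios to CDH1, CDH6 and CDH16 are higher in all 4 CsA libraries than in any vehicle library, and the ratio to CDH4 is lower.

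Among all tested genes, those whose pattern over the 8 libraries lay nearest to a cadherin were found by the root mean square difference of centred log2 CPM. A small difference can mean little more than a like fold change. Nearest to CDH6 were BIRC3 (0.095) and RSPO3 (0.130). Nearest to CDH16 were STAT4 (0.116), LRG1 (0.173) and SAA2 (0.224), of which SAA2 encodes an acute-phase protein. With cyclosporine A these were at 1.26, 2.82 and 1.01 CPM, low as CDH16 was. CDH2 lay nearest to PRDM2 (0.035), ADD3 (0.044) and CLSTN1 (0.046), the last a calsyntenin and itself of the cadherin superfamily. CDH4 lay nearest to ST3GAL4 (0.106), PSEN2 (0.112) and OSBPL6 (0.118), and CDH1 to ELANE (0.139), C1QL4 (0.161) and GALNTL1 (0.189). With cyclosporine A, ELANE and C1QL4 were at 0.289 and 0.985 CPM, low as CDH1 was, and GALNTL1 was at 5.38 CPM.

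Beyond these 9 genes, 50 further genes of the cadherin superfamily were examined, and 18 passed the filter. By the same edgeR test, 12 were lower with cyclosporine A, 2 were higher and 4 did not pass the threshold, with a median log2 fold change of -0.54 against 0.00 over all tested features, of which 33.5% were lower and 33.3% higher. Of the 50, 13 had 0 counts in every library. FAT1, a giant cadherin of cell contacts and of the podocyte, had 354, 347, 350 and 310 CPM with cyclosporine A, against 814, 765, 689 and 681 CPM with vehicle. CLSTN2, a calsyntenin, passed the filter through its vehicle libraries, with 1 cyclosporine A library above 2.205 CPM. It had 1.64 ± 0.721 CPM with cyclosporine A and 11.8 ± 1.07 CPM with vehicle (SD, n = 4 each), a log2 fold change of -2.79 ± 0.23. The planar polarity cadherins CELSR2 and CELSR3 also fell, by 0.92 and 0.75 on the log2 scale, and the atypical CDH24 fell by 1.03. The desmosomal cadherins DSC2 and DSG2, which anchor keratin filaments, fell by 0.58 and 0.37. PCDH1, a protocadherin of epithelia, was higher in every cyclosporine A library, at 20.6, 21.7, 23.2 and 18.2 CPM, against 7.24, 5.15, 4.02 and 4.29 CPM with vehicle (log2 fold change 1.96 ± 0.16; edgeR quasi-likelihood adjusted p = 1.56e-16). FAT2, which passed the filter through its cyclosporine A libraries, was also called higher, and PCDH7 did not pass the threshold, with a log2 fold change of -0.22 ± 0.15.

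**Figure D3:**
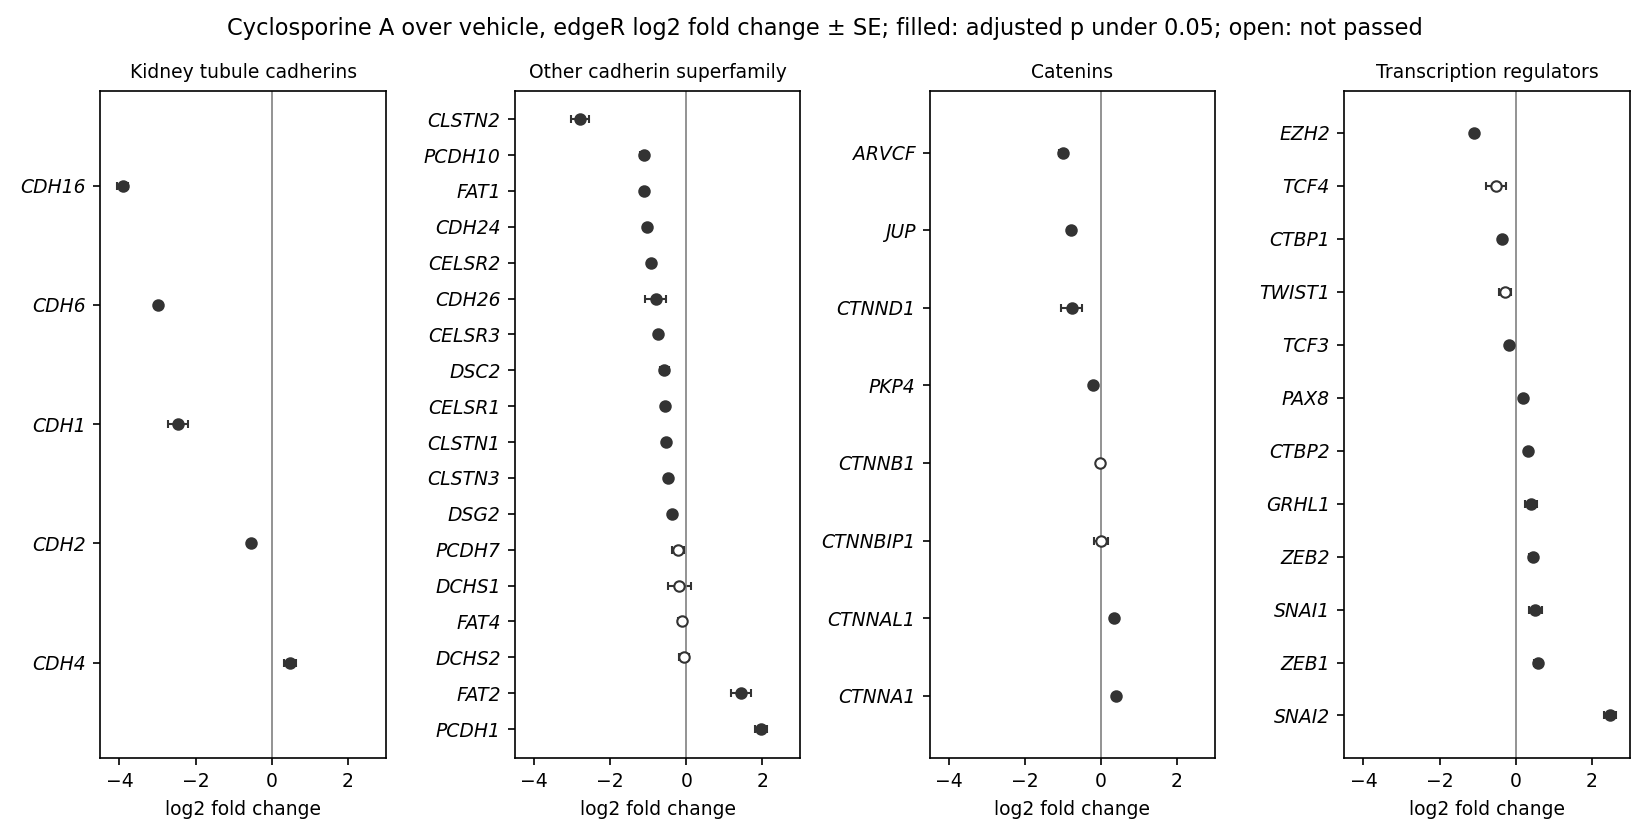
Log2 fold change of cyclosporine A over vehicle, with its standard error, for the tested cadherins, other superfamily genes, catenins and transcription regulators reported here; filled points passed an adjusted p of 0.05 and open points did not. The cadherins run from -3.91 for CDH16 to 0.48 for CDH4, and CTNNB1 lies at -0.01.

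Beta- and alpha-catenin couple cadherin tails to actin. Of 11 listed catenins and related genes, 8 were tested: 2 were higher with cyclosporine A, 4 lower and 2 did not pass. The median log2 fold change of the 8 was -0.11, where 66.9% of all tested features were called in either direction. CTNNB1, which encodes beta-catenin, had 531, 520, 542 and 503 CPM with cyclosporine A, against 525, 529, 536 and 527 CPM with vehicle. The ranges overlapped fully, and the log2 fold change was -0.01 ± 0.06 (edgeR quasi-likelihood adjusted p = 0.839). CTNNA1, which encodes alpha-catenin, had 266, 267, 264 and 246 CPM with cyclosporine A, against 182, 206, 207 and 200 CPM with vehicle, and rose by 0.39 ± 0.06 on the log2 scale. JUP, which encodes plakoglobin of desmosomes and adherens junctions, fell to 79.1 ± 4.38 CPM with cyclosporine A, against 137 ± 8.05 CPM with vehicle. ARVCF, a catenin of the membrane-proximal part of the tail, fell by 1.00 ± 0.10 on the log2 scale. Its relative CTNND1 had only 40 counts with cyclosporine A and 86 with vehicle and is uncertain, because it passed the filter through its vehicle libraries, overlaps the read-through feature TMX2-CTNND1 and its call was lost without the second cyclosporine A library (adjusted p = 0.0777) or the first vehicle library (0.0513).

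Of 18 listed junction partners, 16 were tested: 4 were higher, 6 lower and 6 did not pass (median log2 fold change -0.15), near the 66.9% called over all tested features. PVRL2, a nectin that builds adherens junctions beside cadherins, fell to 124 ± 5.77 CPM with cyclosporine A, against 248 ± 16.1 CPM with vehicle. VCL, which encodes vinculin and binds alpha-catenin under tension, fell by 0.78 ± 0.06 on the log2 scale. LIMA1, whose product links alpha-catenin to actin, rose by 0.75 ± 0.07.

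Of 14 listed genes for cadherin processing and turnover, 13 were tested, with 4 higher, 6 lower and 3 not passing (median -0.05), beside the same 66.9% over all tested features. MMP7, a metalloprotease known to cut E-cadherin from the cell surface, passed the filter through its vehicle libraries, with 1 cyclosporine A library above 2.205 CPM. It had 1.69 ± 0.448 CPM with cyclosporine A and 106 ± 6.62 CPM with vehicle (SD, n = 4 each), a log2 fold change of -5.96 ± 0.14. ADAM10, the sheddase of E- and N-cadherin, did not pass, with a log2 fold change of -0.05 and an adjusted p of 0.469. MGAT5, which adds branched glycans to cadherins, rose by 0.56 ± 0.06, and ADAM15, another metalloprotease of the cell surface, fell by 0.37 ± 0.06.

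Of 24 listed transcription factors and cofactors that act on cadherin genes, 14 were tested: 7 were higher with cyclosporine A, 5 lower and 2 did not pass (median 0.01), where 33.3% of all tested features were higher and 33.5% lower. SNAI2, a zinc finger repressor of CDH1, had 31.3, 26.1, 22.8 and 29.4 CPM with cyclosporine A, against 5.25, 4.05, 4.87 and 5.42 CPM with vehicle. The groups were far apart, and the log2 fold change was 2.48 ± 0.15 (edgeR quasi-likelihood adjusted p = 6.38e-22). ZEB1 had 53.1, 48.4, 51.5 and 40.1 CPM with cyclosporine A, against 35.2, 35.0, 30.5 and 27.1 CPM with vehicle, and rose by 0.59 ± 0.09. ZEB2 and SNAI1 rose by 0.46 ± 0.10 and 0.52 ± 0.17, the SNAI1 groups overlapping. TWIST1 did not pass, with a log2 fold change of -0.27 ± 0.16 (edgeR quasi-likelihood adjusted p = 0.133), but was called lower without the fourth cyclosporine A library (0.0341).

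EZH2, a histone methyltransferase reported to repress CDH1, fell by 1.10 ± 0.07, and PAX8, a kidney lineage factor, rose by 0.19 ± 0.06. HNF4A and GRHL2 had 0 counts in all 8 libraries. Whether these levels bear on the cadherins was not tested.

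RefSeq promoter windows (GRCh38.p14) were at hand only for CDH2 and CDH4 among these cadherins. The 250 bases before each start were searched on both strands for CACCTG, the E-box bound by snail and ZEB proteins. All 35116 windows were searched in the same way, and 17.49% held it. A pair of starts was at hand for each gene. They may not be all its starts, and whether they include its main start was not examined. The windows therefore do not compare the main promoters of these genes. Of the pair, the one farther upstream is shown, with a found motif in capitals.
CDH2, chr18:28177131-28177380, minus strand: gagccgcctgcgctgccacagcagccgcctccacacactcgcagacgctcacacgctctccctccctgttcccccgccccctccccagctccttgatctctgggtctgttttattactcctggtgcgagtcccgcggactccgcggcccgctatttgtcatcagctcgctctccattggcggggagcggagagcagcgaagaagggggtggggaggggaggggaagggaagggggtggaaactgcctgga
CDH4, chr20:61499171-61499420, plus strand: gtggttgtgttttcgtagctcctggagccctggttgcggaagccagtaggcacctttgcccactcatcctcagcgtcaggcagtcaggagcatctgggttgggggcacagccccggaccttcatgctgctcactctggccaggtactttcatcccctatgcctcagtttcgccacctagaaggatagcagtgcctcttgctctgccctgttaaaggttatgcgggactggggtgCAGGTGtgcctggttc
The CDH4 window holds 1 E-box, on the minus strand and thus read as CAGGTG, which begins 16 bases before that start. The CDH2 window has none, and it was not in the windows at the other starts, chr18:28036642-28036891 for CDH2 and chr20:61599511-61599760 for CDH4. A match is a description of the letters and not of binding.

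MicroRNAs known to act on cadherin expression, through ZEB1 and ZEB2 or directly, were read from the small RNA libraries. The miR-200 family falls into 2 seed groups that differ by 1 base, and miR-205-5p and miR-9-5p have seeds of their own. The mature RefSeq sequences are shown with the seed, bases 2 to 8, in capitals.
hsa-miR-200a-3p: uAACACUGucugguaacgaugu
hsa-miR-141-3p: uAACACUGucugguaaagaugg
hsa-miR-200b-3p: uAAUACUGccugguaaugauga
hsa-miR-200c-3p: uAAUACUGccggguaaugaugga
hsa-miR-429: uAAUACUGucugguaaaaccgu
hsa-miR-205-5p: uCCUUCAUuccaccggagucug
hsa-miR-9-5p: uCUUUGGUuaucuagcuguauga

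Of 14 listed miRNAs, 13 were in the table and all 13 were tested. None was higher with cyclosporine A, 1 was lower and 12 did not pass by edgeR's quasi-likelihood test, where 4.89% of the 470 tested miRNAs were called higher and 6.38% lower. In the AACACUG seed group, miR-200a-3p had 4287, 3633, 4487 and 3842 CPM with cyclosporine A, against 3770, 3811, 3786 and 4335 CPM with vehicle. The groups overlapped, and the log2 fold change was 0.05 ± 0.11 (edgeR quasi-likelihood adjusted p = 0.840). In the AAUACUG group, miR-200b-3p had 5993, 6593, 7073 and 7856 CPM with cyclosporine A, against 8124, 6934, 8728 and 8067 CPM with vehicle, a log2 fold change of -0.21 ± 0.11 (adjusted p = 0.248). Within each seed group the members differed widely in level, with miR-141-3p, whose groups did not overlap, at 2.27 CPM with cyclosporine A and 1.61 CPM with vehicle, and miR-200c-3p at 19.4 and 19.1 CPM. miR-429 and miR-205-5p, which also targets ZEB1 and ZEB2, did not pass, at -0.21 ± 0.12 and -0.27 ± 0.11. miR-9-5p, which is known to target CDH1, had a log2 fold change of -0.11 ± 0.12. A miRNA that did not pass is not shown to be alike in both treatments, since in simulated miRNA counts 13 of 34 changes of 0.5 on the log2 scale were called.

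The 1 called miRNA, miR-10b-5p, had 888, 900, 1078 and 1102 CPM with cyclosporine A, against 1254, 1261, 1377 and 1290 CPM with vehicle. The groups did not overlap, and the log2 fold change was -0.39 ± 0.11 (edgeR quasi-likelihood adjusted p = 0.0319). The call was lost in 7 of the 8 fits that leave out a library, with adjusted p from 0.0536 to 0.133, and in the fit with no filter, at 0.065.

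**Figure D4:**
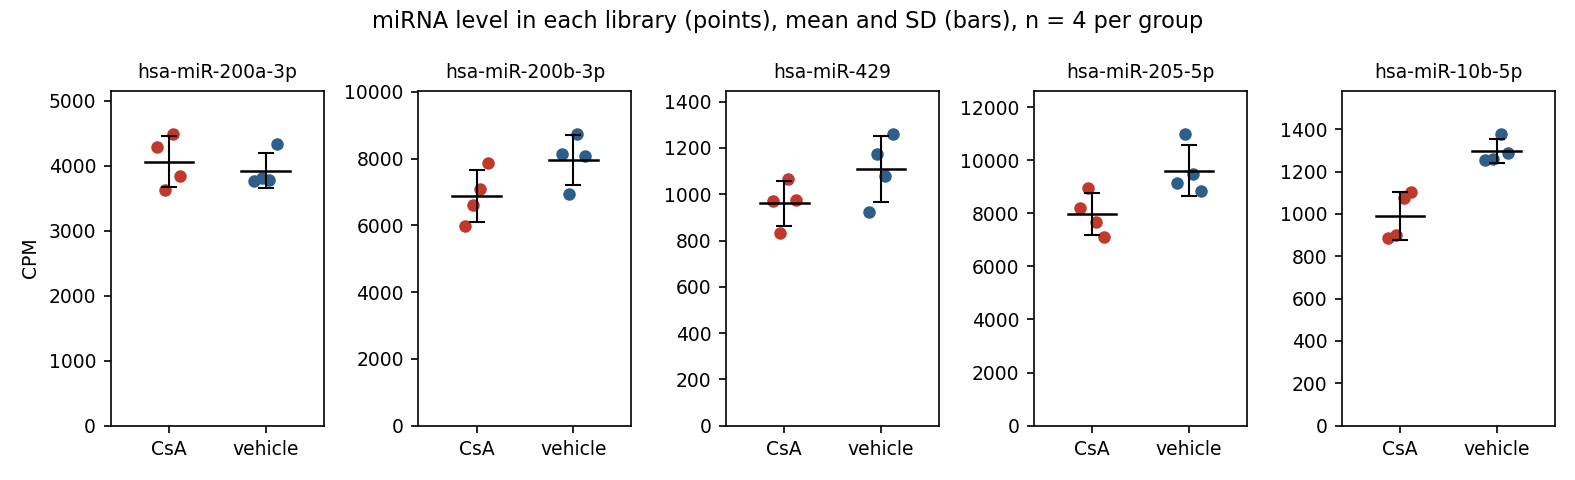
Level of 5 listed miRNAs in each small RNA library in CPM, 1 panel per miRNA with its own axis from 0, CsA points left of vehicle points, and bars for the mean and SD. The groups overlap for miR-200a-3p, miR-200b-3p, miR-429 and miR-205-5p, and do not for miR-10b-5p.

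Argonaute clusters were then counted in the cadherin genes, with the authors' annotation. The AGO2 list for cyclosporine A has 36812 clusters, that for vehicle 56985 and that for all Argonaute proteins 19306. The 9 cadherins hold 49, 85 and 21 of them, or 0.133%, 0.149% and 0.109%. Introns hold 48 of 49, 83 of 85 and 20 of 21 of these. Of all clusters in the 3 lists, 42.64%, 42.38% and 42.85% are intronic. Those shares cover every cluster, not only clusters of protein-coding genes, so they are not a like background for the cadherins. None lies in a 3′ UTR, the usual place of miRNA targets, which allows up to 6.12%, 3.53% and 14.29% of the cadherin clusters (3 counts; counting error only), beside 1.44%, 1.313% and 1.015% of all clusters. No cluster of CDH1 or CDH16 is in any of the 3 lists. Since each list pools its libraries and the lists differ in length, numbers per gene cannot show whether there was a change between treatments.

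Cluster numbers per gene did not follow the mRNA levels. The clusters were mapped after 24 h and the mRNA was read after 48 h. Cluster numbers were not divided by gene length and include both strands, so some may not lie on the gene's own RNA. CDH13, with 4 and 6 mRNA counts, had 24 clusters in the cyclosporine A list and 37 in the vehicle list. Those of the vehicle list lay on both strands, from 82661786 to 83819961 on chromosome 16 in hg19. CDH11, with no mRNA count at all, had 2 and 6. CDH6, with 946 and 9446 mRNA counts, had 1 and 3. CDH4 had 16 and 28, and CDH2 had 4 and 10.

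Strand was known for CDH2 and CDH4. On the strand of the gene lay 7 of 16 CDH4 clusters in the cyclosporine A list and 15 of 28 in the vehicle list, and 2 of 4 and 6 of 10 for CDH2. Over all intronic clusters of genes with a known strand the share on the gene's strand was 55.16% and 54.15%, and for 3′ UTR clusters 69.06% and 63.13%. The cyclosporine A and vehicle lists shared 22 cadherin clusters by 1 base or more on the same strand, which is 44.9% of 49 and 25.88% of 85. A CDH4 exon cluster, chr20:60503426-60503443 in hg19, was in all 3 lists, on the minus strand, opposite to CDH4; it begins at 60503418 in the list for all Argonaute proteins. Its authors' score was 608 with cyclosporine A, 342 with vehicle and 253 for all Argonaute proteins, at the 91.1, 90.4 and 90.4 percentile of each list.

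Summed levels of the cell type marker lists differed between the treatments, mostly through a few genes. The 10 fibroblast markers summed to 109 to 127 CPM with cyclosporine A and 362 to 404 CPM with vehicle; 3 were tested, and all 3 (LUM, DCN and COL1A1) were lower. The 15 markers of the loop, distal tubule and collecting duct summed to 627 to 664 CPM with cyclosporine A and 1112 to 1250 CPM with vehicle, nearly all of it SCNN1A. SCNN1A was lower, as were ATP6V1B1 and SLC12A3. Both of these passed the filter through their vehicle libraries, with 3 and 0 cyclosporine A libraries above 2.205 CPM. The 20 genes listed as proximal tubule markers summed to 2464 to 2587 CPM with cyclosporine A and 2230 to 2362 CPM with vehicle, with 5 of 9 tested higher and 2 lower. The largest levels in that sum were those of PAX8 (means of 954 and 833 CPM) and KRT19 (536 and 432 CPM). Neither of these 2 is particular to the proximal tubule. LRP2, CUBN, HNF4A, SLC22A6 and SLC22A8, with few or no counts, add almost nothing to it, so the sum does not describe them. The 8 endothelial markers summed to 27.9 to 32.4 CPM with cyclosporine A and 4.54 to 6.35 CPM with vehicle, mostly TIE1. The 7 immune markers, mostly CD68, summed to 207 to 229 CPM with cyclosporine A and 145 to 175 CPM with vehicle, with 2 of 3 tested higher and CD14, tested through its vehicle libraries alone, lower. The part of these differences in the cadherin results was not tested.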

How the data were processed

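Sample labels gave the groups and the replicate numbers. The cadherins, the gene lists and the tests were chosen with earlier results of these data known. The deposited tables hold unnormalised whole-number counts for each gene symbol and each mature miRNA. The submitters' processing notes name build hg19 and the tools TopHat, Bowtie, HTSeq, cutadapt, DESeq2 and CASAVA 1.8.2. What each did, and whether reads were counted by strand, is not stated in the sources used here. The authors' deposited comparison table gives log2 fold changes and adjusted p-values, which were copied where named. Per the file headers, each PAR-CLIP list gives a position, an annotation and a score per cluster; the meaning of the score is not stated there, so it served only to rank clusters within a list.

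mRNA and miRNA counts were fitted apart (edgeR 4.0.16 under R 4.3.3; filterByExpr with a minimum count of 10; TMM; quasi-likelihood test with treatment as sole term), and p-values were adjusted by Benjamini-Hochberg over all 12855 mRNA features or 470 miRNAs tested. An adjusted p under 0.05 is a call. Fold changes are log2 of cyclosporine A over vehicle, and their standard errors follow from the F statistic. DESeq2 1.42.0 and limma 3.58.1 gave alternatives. Named are every cadherin, up to 4 genes of each list by p-value, catenins and the SNAI, ZEB and TWIST factors, listed miRNAs, and the 3 genes nearest to each called cadherin; FAT2, PAX8 and ADAM10, and marker and cluster genes named beyond these, were added after their values were seen. A few genes named by this rule are left out of the text and figures; they remain in the counts of each list and of all features. The planned search for seed sites in clusters was not made.

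Replicates differed by more than sampling noise, and far more so in miRNA. The chi-square divided by its degrees of freedom was 1.265 to 3.631 in mRNA pairs of a treatment and 26.083 to 194.988 in miRNA pairs. In simulated mRNA counts the edgeR step recovered 49 of 66 genes changed by 0.5, 64 of 67 changed by 1 and 62 of 62 changed by 2 on the log2 scale, and called 10 of 12537 unchanged genes. In simulated miRNA counts it recovered 13 of 34, 32 of 32 and 30 of 30, with 4 of 364 unchanged miRNAs called. Cluster positions are given 1-based in hg19, as listed by the authors. Promoter and miRNA sequences are from RefSeq, with promoters in GRCh38.p14.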

Additional observations from a re-analysis of the deposited data

Results flagged for a closer look

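In some groups of 4 libraries, 1 library stood apart from the others by more than Dixon's 95% limit; of 124 gene and group pairs examined 7 did so, where chance gives about 5%. Among the cadherins, the first vehicle library had 226 CPM of CDH2, against 198 CPM in the next. In the superfamily, the fourth cyclosporine A library had 310 CPM of FAT1 (next 347), and the third vehicle library had 10.2 CPM of CLSTN2 (next 12.2). Among catenins, the fourth cyclosporine A library had 246 CPM of CTNNA1 (next 264) and 85.7 CPM of JUP (next 77.2). The second vehicle library had 2.39 CPM of SLC12A3 (next 2.70). Among miRNAs, the fourth vehicle library had 4335 CPM of miR-200a-3p (next 3811).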

How the results depend on the processing

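Of the cadherins, CDH1, CDH2, CDH6 and CDH16 kept their direction and their call in all 13 alternatives, with log2 fold changes from -2.73 to -2.21 for CDH1, -0.56 to -0.49 for CDH2, -3.02 to -2.94 for CDH6 and -4.13 to -3.77 for CDH16. CDH4 kept its direction, and its call in 12 of 13. Leaving out each library in turn gave 0 to 1 cadherin called higher and 4 to 5 lower, the fifth being CDH3, which passed the filter in 5 of those fits. Replicate numbers were not taken as pairs: in mRNA the deviations of same-numbered libraries correlated between -0.0841 and 0.033, in miRNA between -0.0599 and 0.338, and 2 of 4 miRNA libraries of each treatment correlated best with their own number. With the replicate number as a block, the cadherins gave 1 higher and 4 lower, all mRNA features 4243 higher and 4243 lower, and miRNAs 43 higher and 49 lower, against 23 and 30 without it; the cause was not tested. Leaving out libraries gave 14 to 29 miRNAs higher and 15 to 29 lower, and 0 to 1 of the listed miRNAs lower; with no filter 0 of them was lower. DESeq2 called 3915 mRNA features higher and 3883 lower. Above the 50 percentile of each list by score lay 22 of the cadherin clusters in the cyclosporine A list, 37 in the vehicle list and 8 in the list for all Argonaute proteins. With a shared length of at least 50% of the shorter cluster the 22 shared clusters were still counted. Depth limits CDH1, CDH3, CDH4, CDH11, CDH13 and CDH17, each with under 200 counts per treatment, and the filter left 4 cadherins untested. It also limits CDH16 with cyclosporine A, at 57 counts against 1092 with vehicle. AGO2 lists without replicate values allow no test between treatments.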

Other observations

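Clusters annotated to 3′ UTRs of the other listed genes were few, and 12 of the 13 with a known gene strand over the 3 lists lay on the opposite strand. The 13 are not all separate sites, since a site counts once in each list that holds it, as that of DSG1 did. Over all 3′ UTR clusters with a known gene strand, 69.06% lay on the gene's strand in the cyclosporine A list. The share was 63.13% in the vehicle list and 57.62% in the list for all Argonaute proteins. A cluster in the 3′ UTR of the desmosomal cadherin gene DSG1, at chr18:28938874-28938897 in hg19, was in the cyclosporine A list with a score of 376 and in the list for all Argonaute proteins with a score of 364, and the vehicle list has it at chr18:28938872-28938894 with a score of 790. It lies on the minus strand, while RefSeq has DSG1 on the plus strand, and DSG1 had 0 mRNA counts in all 8 libraries. In the vehicle list, a cluster at chr1:9790433-9790446 lies in the 3′ UTR of CLSTN1 on the opposite strand. The 3′ UTR of SNAI2 holds 1 cluster, in the cyclosporine A list, with a score of 48, at the 21.7 percentile of that list. PTPN1, a phosphatase that acts on the cadherin complex, had 1 cluster on its own strand in the vehicle list, at chr20:49199999-49200024, with a score of 55.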
